A study of Homo sapiens with 6 samples.

Results

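The genes described here are 10 negative regulators of ERK signalling: the phosphatases DUSP4, DUSP5 and DUSP6, the Sprouty genes SPRY1, SPRY2 and SPRY4, the SPRED genes SPRED1, SPRED2 and SPRED3, and PHLDA1. They were found by gene symbol among the 60748 genes of the deposited table, and all 10 passed the filter on low counts that left 18275 genes for testing. Their RNA was measured in LX-2 cells, an immortalized line derived from human hepatic stellate cells. LX-2FAP cells (n = 3 libraries) were infected with lentivirus to overexpress fibroblast activation protein α (FAPα), a membrane-bound serine protease. LX-2Vector cells (n = 3 libraries) carried the empty vector. In the vector a ubiquitin promoter drives the inserted gene, and both groups share its EGFP and puromycin-resistance cassette, its lentiviral delivery, the puromycin selection and 24 hours in culture in medium with serum, with no other treatment. The methods describe stable clones. Whether the libraries of a group came from 1 clone or from separate cultures was not given in the sources used here, so an effect of FAPα and a difference between selected lines cannot be told apart, and p-values measure only the spread between these libraries, which may be technical.

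Growth factor receptors pass their signal through RAS, RAF and MEK to the ERK kinases. ERK activity in turn induces genes whose products shut the cascade down, so the RNA of these genes is widely read as a record of ERK output. DUSP4 and DUSP5 dephosphorylate ERK in the nucleus and DUSP6 does so in the cytoplasm. Sprouty proteins interfere between the receptor and RAF, SPRED proteins bring the RAS inhibitor neurofibromin to the membrane and restrain RAF activation, and PHLDA1, a pleckstrin homology-like domain protein, is induced early after receptor stimulation. In stellate cells, ERK lies downstream of PDGF and FGF receptors, and it is known for driving their proliferation. The study placed FGF receptor and ERK signalling upstream of FAPα expression in stellate cells. The question here runs the other way: whether the RNA of these ERK-induced genes changed with FAPα overexpression.

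Promoter sequence is shown for SPRY2 and SPRY1, the Sprouty genes with the highest and the lowest RNA in these cells. Each is the 250 bases before a RefSeq start site on GRCh38.p14, 5′ to 3′ on the strand of the gene, and neither holds an exon of GENCODE release 29. The SPRY2 window is chr13:80341127-80341376 on the minus strand and the SPRY1 window is chr4:123396545-123396794 on the plus strand. Capitals mark the ETS core CCGGAA and the EGR core GCGNGGG, looked for on both strands. ETS and EGR factors are transcription factors that ERK signalling acts on.
SPRY2: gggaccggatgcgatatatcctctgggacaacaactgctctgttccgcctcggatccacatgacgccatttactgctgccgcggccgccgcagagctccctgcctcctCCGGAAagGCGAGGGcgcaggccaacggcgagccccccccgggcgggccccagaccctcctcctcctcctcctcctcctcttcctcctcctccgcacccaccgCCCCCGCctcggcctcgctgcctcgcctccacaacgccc
SPRY1: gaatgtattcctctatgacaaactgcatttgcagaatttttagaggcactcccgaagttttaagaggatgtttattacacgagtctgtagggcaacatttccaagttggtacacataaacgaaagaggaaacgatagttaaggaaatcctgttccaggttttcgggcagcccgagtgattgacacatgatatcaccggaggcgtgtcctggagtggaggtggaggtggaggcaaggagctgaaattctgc
The SPRY2 window holds an ETS core whose first base lies at -142 from the start and EGR cores at -134 and -39, none of which overlap, and 70.4% of its bases are G or C. The SPRY1 window holds no match and is 45.6% G or C, against a median of 58.0% over all windows. A second SPRY1 start, with a window of 68.0% G or C, has an ETS core at -67 and EGR cores at -28 and -22. The windows of the other 2 SPRY2 starts, 62.4% and 41.2% G or C, hold no match. RefSeq windows were found for 8 of the 10 genes, 13 windows in all. Of these 13, an ETS core was in 3 (PHLDA1, SPRY1 and SPRY2) and an EGR core in 6 (PHLDA1, SPRED1, SPRED3, SPRY1, SPRY2 and SPRY4), against 14.5% and 31.4% of 35116 windows of the same length. The AP-1 letters TGANTCA were in 1 window (SPRED3), against 6.57% of all windows. The CRE core TGACGT and the CArG box were in 0 of the 13, against 7.1% and 1.16%. A match is a description of letters in the window and not evidence of a bound site.

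Total counts ran from 17355700 to 26352060 per library, and the genes other than SPRY1 had 283 to 12668 counts in every library. Levels below are TMM-normalized CPM, counts scaled to a common library size, where libraries are compared, and FPKM, which is per length, where genes are compared. FAP itself had 49, 42 and 55 counts in LX-2Vector and 14864, 15160 and 14805 in LX-2FAP, 8.33 higher on the log2 scale by edgeR (SE 0.13, adjusted p = 4.47e-16), which fits the labels. Of 12 stellate cell markers, VIM, TIMP1 and COL1A1 were abundant. LRAT, which stores vitamin A in quiescent cells, was at 0 counts in every library, and DES was at 0 or 1. Low in LX-2Vector were LHX2 (mean 2.02 FPKM), ACTA2 (1.29), HAND2 (0.445), COL1A2 (0.109) and DCN (0.108). PDGFRB (3.51) and COL3A1 (6.22) lay between. Summed FPKM of the stellate list was 471.9 to 491.4 in LX-2Vector and 488.3 to 503.7 in LX-2FAP. Most of the sum was VIM (mean 300.8 FPKM in LX-2Vector) and TIMP1 (131.2). VIM was called higher and PDGFRB, COL1A1 and COL3A1 were called lower. The 3-gene lists summed to 0.774 to 0.966 FPKM in LX-2Vector and 0.622 to 0.791 in LX-2FAP for endothelial cells, 0.601 to 0.856 and 0.57 to 0.744 for leukocytes, 0.288 to 0.494 and 0.329 to 0.38 for epithelium, and 0.011 to 0.05 and 0.024 to 0.07 for hepatocytes, where TTR was at 0. Of the endothelial genes VWF was called lower (-1.06 on the log2 scale, edgeR adjusted p = 0.0268). The part of these markers in the results was not tested. In bulk RNA, fewer cells expressing a gene and less RNA per cell cannot be told apart.

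In LX-2FAP, 4 of the 10 feedback genes were higher and 0 were lower at an edgeR adjusted p under 0.05, and 5 had an unadjusted p under 0.05. SPRED1 (1.22-fold), PHLDA1 (1.18-fold), SPRY2 (1.16-fold) and DUSP6 (1.15-fold) rose, that is 1 SPRED gene, 1 Sprouty gene, 1 phosphatase and PHLDA1. Across all 18275 tested genes, 5.29% were called, 2.57% higher and 2.73% lower, and 4054 had an unadjusted p under 0.05 in edgeR. The median log2 fold change of the 10 genes was 0.12, against -0.01 over all tested genes. For 5 of the 10, DUSP5 being the fifth, all 3 LX-2FAP libraries lay above all 3 LX-2Vector libraries, as they did for 13% of tested genes. The sign was positive for 8 of the 10, and for 8590 of the 18275 tested genes. Of the 10, it was positive for 7 when libraries were scaled by size alone and for 9 when a trend on GC content was removed. The median log2 fold change over all genes in the fit was -0.041 with library size alone and 0.026 with the GC trend removed. The calls rest on few libraries. Leaving out LX-2FAP replicate 3, edgeR called 0 of the 10, with 5 at an unadjusted p under 0.05. Of all tested genes it then called 20, with 2636 at an unadjusted p under 0.05. Leaving out LX-2FAP replicate 2 kept the call of PHLDA1 alone, with 126 of all tested genes called. Leaving out LX-2Vector replicate 1 kept those of DUSP6 and PHLDA1, with 402 of all tested genes called, against 967 in the main fit. By limma-trend on FPKM, with either pseudocount, 0 of the 10 and 2 of all tested genes were called. Of the 10, 6 had an unadjusted p under 0.05. Adjusted p ran from 0.112 to 0.133 for DUSP6, SPRY2, SPRED1 and PHLDA1. Of all tested genes, 3662 (pseudocount 1) and 3638 (pseudocount 0.1) had an unadjusted p under 0.05 by limma-trend.

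**Figure D1:**
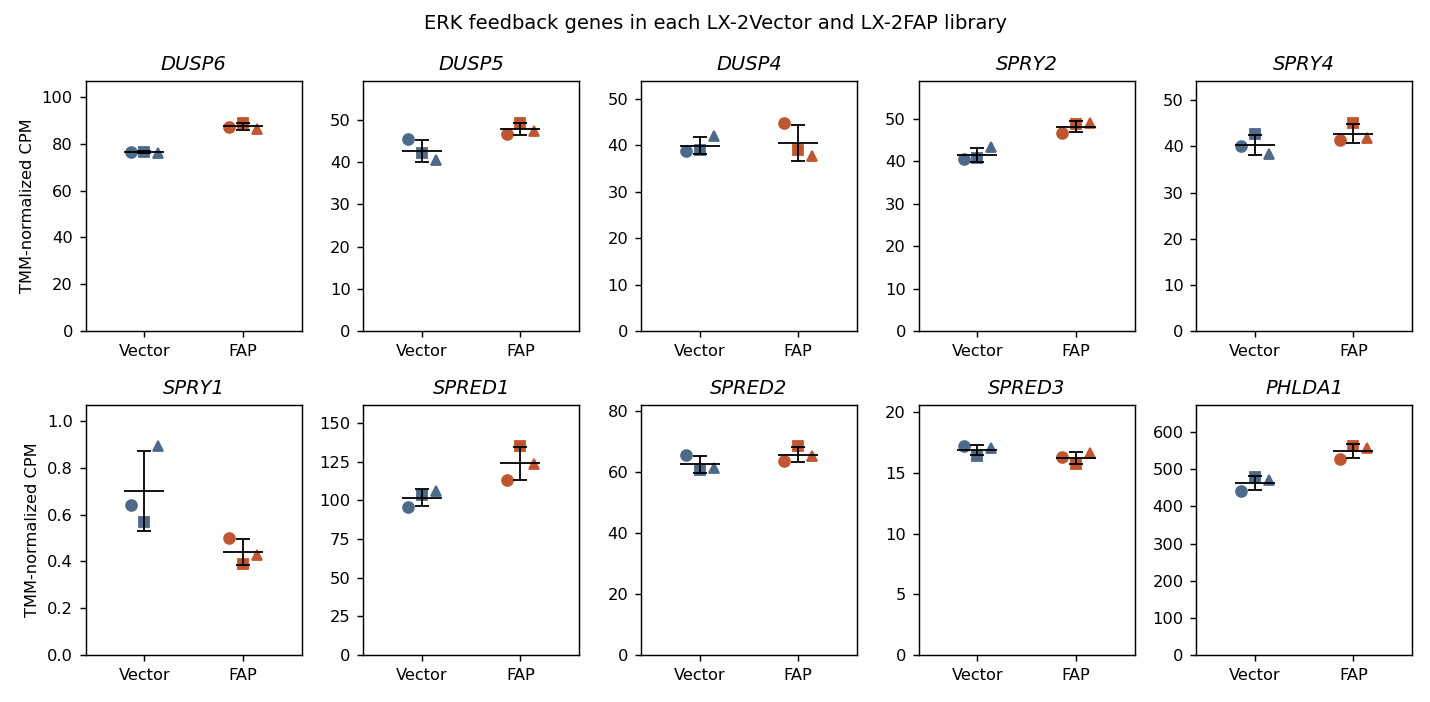
TMM-normalized CPM (vertical axes, each from 0) of the 10 genes in the 3 LX-2Vector and 3 LX-2FAP libraries, with replicates 1, 2 and 3 as circles, squares and triangles, the mean as a long bar and the SD (n = 3) as an error bar. For DUSP6, DUSP5, SPRY2, SPRED1 and PHLDA1 all LX-2FAP points lie above all LX-2Vector points, and for SPRY1 all lie below.

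DUSP6 (ENSG00000139318, chromosome 12, 89347232 to 89353271, minus strand, GRCh38) encodes the cytoplasmic ERK phosphatase. It stood at 76.4, 76.6 and 75.8 CPM in the LX-2Vector libraries (replicates 1 to 3, as for each gene that follows) and at 87.1, 88.9 and 86.1 CPM in the LX-2FAP libraries. The groups did not overlap, and both were narrow, at 76.3 ± 0.407 and 87.4 ± 1.43 CPM (SD, n = 3). By edgeR the log2 fold change was 0.20 (SE 0.04, 95% interval 0.10 to 0.29, adjusted p = 0.0197). Besides the limma-trend fits, DUSP6 lost its call when LX-2FAP replicate 2 (adjusted p = 0.0963) or replicate 3 (adjusted p = 0.115) was left out. DUSP6 shares 40.5% of its exon bases with AC024909.2 on the other strand, which had 8 to 18 counts per library against 1347 to 2092 for DUSP6. The library kit does not mark strand, and the strand setting of the counting was not given. Reads on the shared bases may therefore be missing from the counts and FPKM of both genes.

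DUSP5 (ENSG00000138166, chromosome 10, 110497838 to 110511544, plus strand) encodes a nuclear ERK phosphatase. Its values were 45.4, 42.1 and 40.4 CPM in LX-2Vector and 46.6, 49.3 and 47.3 CPM in LX-2FAP. All LX-2FAP libraries were the higher ones, with LX-2Vector replicate 1 the nearest to them. This gave a log2 fold change of 0.16 (SE 0.06, 95% interval 0.04 to 0.28), with an edgeR p of 0.0135 that did not pass adjustment (adjusted p = 0.111). It was called with the GC trend removed (log2 fold change 0.26, adjusted p = 0.0187).

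DUSP4 (ENSG00000120875, chromosome 8, 29333064 to 29350668, minus strand) encodes the other nuclear phosphatase. It was at 38.8, 38.9 and 42.0 CPM in LX-2Vector and 44.8, 39.0 and 37.7 CPM in LX-2FAP. The groups overlapped, and LX-2FAP replicates 1 and 3 were the highest and the lowest of the 6 libraries. DUSP4 had a log2 fold change of 0.02 (95% interval -0.12 to 0.17, edgeR adjusted p = 0.874), whose sign turned when libraries were scaled by size alone or LX-2FAP replicate 1 was left out.

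SPRY2 (ENSG00000136158, chromosome 13, 80335976 to 80340951, minus strand) encodes a Sprouty protein that acts below receptor tyrosine kinases. It was at 40.5, 40.7 and 43.5 CPM in LX-2Vector and 46.7, 48.7 and 49.1 CPM in LX-2FAP, with no overlap. SPRY2 rose by edgeR with a log2 fold change of 0.21 (SE 0.05, 95% interval 0.10 to 0.33, adjusted p = 0.0339). Of 15 alternatives it was called in 8, against 10 for SPRED1, 11 for DUSP6 and 12 for PHLDA1. Its call was lost in both limma-trend fits on FPKM (adjusted p = 0.119 and 0.117), with libraries scaled by size alone (adjusted p = 0.0558) and in 4 of the 6 fits without 1 library: LX-2Vector replicate 1 (0.0886), LX-2Vector replicate 2 (0.0794), LX-2FAP replicate 2 (0.13) and LX-2FAP replicate 3 (0.196).

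SPRY4 (ENSG00000187678, chromosome 5, 142310427 to 142326455, minus strand), whose product inhibits RAS activation below growth factor receptors, was at 40.0, 42.6 and 38.4 CPM in LX-2Vector and 41.3, 45.1 and 41.7 CPM in LX-2FAP. LX-2Vector replicate 2 lay above LX-2FAP replicates 1 and 3. SPRY4 did not pass (log2 fold change 0.08, 95% interval -0.04 to 0.21, edgeR adjusted p = 0.446).

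SPRY1 (ENSG00000164056, chromosome 4, 123396795 to 123403760, plus strand), a Sprouty gene induced by growth factors in many cell types, was close to absent, with 17, 10 and 19 counts in LX-2Vector and 12, 7 and 9 in LX-2FAP. These are 0.642, 0.569 and 0.891 CPM against 0.4995, 0.388 and 0.429 CPM. SPRY1 was the only one of the 10 with all LX-2FAP libraries below all LX-2Vector libraries. The share of all tested genes in that order was not counted. The SPRY1 log2 fold change of -0.66 had a wide interval (SE 0.31, 95% interval -1.33 to 0.01, edgeR adjusted p = 0.234). SPRY1 was thus not called.

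SPRED1 (ENSG00000166068, chromosome 15, 38252326 to 38357249, plus strand) encodes a protein that recruits neurofibromin. It was at 95.7, 103.7 and 105.9 CPM in LX-2Vector and 113.3, 135.0 and 123.9 CPM in LX-2FAP. The groups did not overlap, and the LX-2FAP libraries were spread over a wider range, with a mean of 124.0 ± 10.9 CPM (SD, n = 3). In edgeR it rose by a log2 fold change of 0.29 (SE 0.06, 95% interval 0.16 to 0.41, adjusted p = 0.0155). Besides the limma-trend fits, the call was lost without LX-2Vector replicate 1 (adjusted p = 0.0622), LX-2FAP replicate 2 (0.0835) or LX-2FAP replicate 3 (0.1).

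SPRED2 (ENSG00000198369, chromosome 2, 65310851 to 65432637, minus strand), which acts like SPRED1 on RAS and RAF, was at 65.4, 60.5 and 61.4 CPM in LX-2Vector and 63.6, 68.3 and 65.1 CPM in LX-2FAP. LX-2Vector replicate 1 fell among the LX-2FAP libraries. SPRED2 did not pass (log2 fold change 0.07, 95% interval -0.04 to 0.18, edgeR adjusted p = 0.465).

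SPRED3 (ENSG00000188766, chromosome 19, 38388421 to 38399587, plus strand), the family member without a functional KIT-binding domain, was at 17.2, 16.4 and 17.0 CPM against 16.3, 15.7 and 16.7 CPM. The groups overlapped, and the log2 fold change of -0.06 (95% interval -0.21 to 0.10, edgeR adjusted p = 0.692) became 0.06 when the GC trend was removed.

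PHLDA1 (ENSG00000139289, chromosome 12, 76025447 to 76033932, minus strand) was the most abundant of the 10 and had the smallest adjusted p. It was at 441.3, 478.7 and 470.0 CPM in LX-2Vector and 527.3, 561.6 and 556.5 CPM in LX-2FAP. The groups were far apart relative to their spread, at 463.3 ± 19.6 and 548.5 ± 18.5 CPM (SD, n = 3). PHLDA1 rose by a log2 fold change of 0.24 in edgeR (SE 0.04, 95% interval 0.15 to 0.33, adjusted p = 0.00765). PHLDA1 was not called by limma-trend either, and among the 6 fits without 1 library it kept its call in 5 and lost it without LX-2FAP replicate 3 (adjusted p = 0.0762). Antisense genes AC011611.3 and AC011611.4, which cover 16.5% of PHLDA1 exon bases, had 0 to 30 counts per library, against at least 8420 for PHLDA1. As for DUSP6, how reads on the shared bases were assigned is not known.

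**Figure D2:**
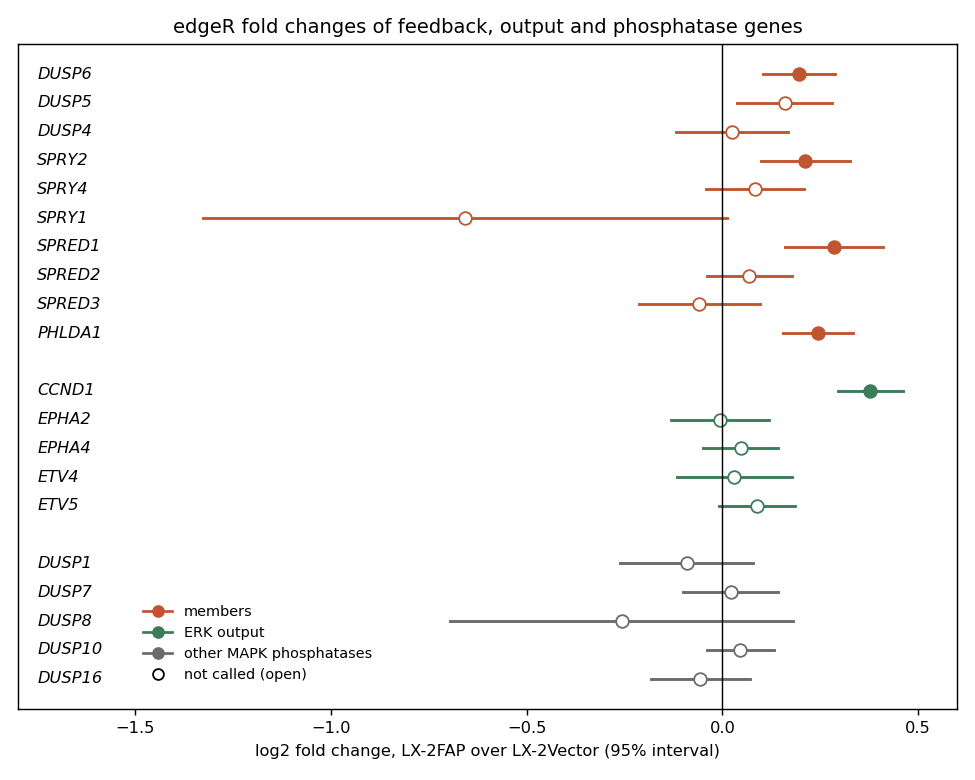
Log2 fold changes of LX-2FAP over LX-2Vector from edgeR (horizontal axis) with 95% intervals as lines, for the 10 feedback genes, 5 other genes induced by ERK and 5 other MAP kinase phosphatases. Filled points passed an adjusted p under 0.05: PHLDA1, SPRED1, SPRY2, DUSP6 and CCND1, from 0.20 to 0.38. The other phosphatases lie between -0.26 and 0.05.

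Per length, the 10 genes covered a wide range. In LX-2Vector, PHLDA1 stood at 79.1 ± 3.70 FPKM (SD, n = 3), above 98.2% of tested genes, and SPRY1 at 0.179 ± 0.0433 FPKM, above 4.7%. Between them came DUSP6 at 19.96 ± 0.132, DUSP5 at 17.0 ± 0.955, SPRED1 at 13.3 ± 0.755, SPRY2 at 13.1 ± 0.552, SPRED2 at 11.5 ± 0.433, SPRY4 at 6.22 ± 0.343, DUSP4 at 5.54 ± 0.261 and SPRED3 at 2.91 ± 0.0587 FPKM. Of these neighbours, SPRED1 (12.4 to 13.8 FPKM) and SPRY2 (12.7 to 13.7 FPKM) overlapped in LX-2Vector, and no other pair next to each other did. The LX-2FAP means kept the same order, from 91.8 FPKM for PHLDA1 to 0.110 FPKM for SPRY1. Levels of DUSP6 and PHLDA1 may be too low, as reads on bases shared with antisense genes may be missing.

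**Figure D3:**
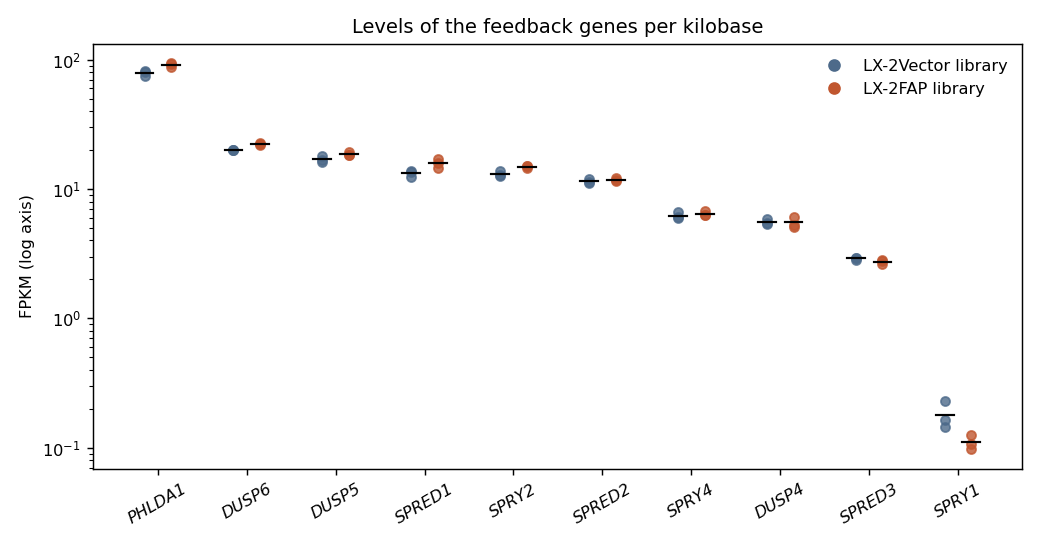
FPKM (vertical log axis) of each gene in the 3 LX-2Vector and 3 LX-2FAP libraries, ordered by the LX-2Vector mean, with points for libraries and bars for group means. PHLDA1 lies highest at 79.1 FPKM in LX-2Vector, and SPRY1 lies lowest at 0.179 FPKM.

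Within each family the make-up was described from FPKM, and the 9 ratios of FPKM between 2 genes of a family, chosen after the data were seen, were compared between the groups. DUSP6 held 47.0% and DUSP5 40.0% of the summed FPKM of the 3 phosphatases in LX-2Vector, and 48.1% and 40.0% in LX-2FAP. The DUSP6 share may be too low, as reads on bases shared with AC024909.2 may be missing. SPRY2 held 67.1% of Sprouty RNA in LX-2Vector and 69.3% in LX-2FAP, and SPRY1 held 0.916% and 0.514%. SPRED1 held 48.0% of SPRED RNA in LX-2Vector and 52.1% in LX-2FAP, while SPRED2 held 41.5% and 38.9% and SPRED3 10.5% and 9.04%. The ratio of SPRED1 to SPRED2 was 1.04, 1.22 and 1.23 in LX-2Vector and 1.27, 1.40 and 1.35 in LX-2FAP, with no overlap. Groups did not overlap for 5 of the 9 ratios. The others were SPRED1 to SPRED3 (4.21 to 4.78 in LX-2Vector against 5.27 to 6.51 in LX-2FAP), SPRED2 to SPRED3 (3.84 to 4.06 against 4.16 to 4.64), SPRY1 to SPRY2 (0.0113 to 0.0166 against 0.00646 to 0.00868) and SPRY1 to SPRY4 (0.0221 to 0.0384 against 0.0142 to 0.01999). For each of the 5 the 2-sided exact permutation p was 0.1, and 0.18 after adjustment over the 9 ratios. The smallest p that 3 libraries against 3 allow is 0.1. No ratio could thus have passed the cut used for calls, whatever its values. The test therefore cannot decide whether a ratio differed, and the ratios are a description. The 3 ratios among the phosphatases overlapped between the groups, as did that of SPRY2 to SPRY4. Ratios within a family share genes and are not independent, and those with SPRY1 rest on 7 to 19 SPRY1 counts per library. The share of non-overlapping ratios among other gene pairs was not computed, so 5 of 9 has no background to be read against. The 13% of single tested genes with all LX-2FAP libraries above all LX-2Vector libraries in CPM covers 1 direction only. It is not a background for ratios.

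Across libraries, the 9 genes other than SPRY1, all with mean counts of 100 or more, were set on a common scale by subtracting from each its mean log2 CPM. Their average deviation was -0.07, -0.07 and -0.06 in the LX-2Vector libraries and 0.04, 0.10 and 0.06 in the LX-2FAP libraries, replicates 1 to 3. LX-2FAP replicate 2 held the highest value for 6 of the 9 genes, and its share over all tested genes was not counted. DUSP4 and SPRED3 departed from the common pattern, with DUSP4 highest in LX-2FAP replicate 1 and SPRED3 in LX-2Vector replicate 1. Signs were mixed within a group for DUSP5, SPRY4 and SPRED2 too. Among 11547 other tested genes of such abundance, those whose log2 CPM followed this average most closely over the 6 libraries were CCDC47 (Pearson r = 0.9987), HSPA5 (0.9965), TVP23B (0.9964), SNX13 (0.9959) and USP53 (0.9958). With 6 libraries in 2 groups and so many candidates, these r values are a description and share the contrast between the groups.

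**Figure D4:**
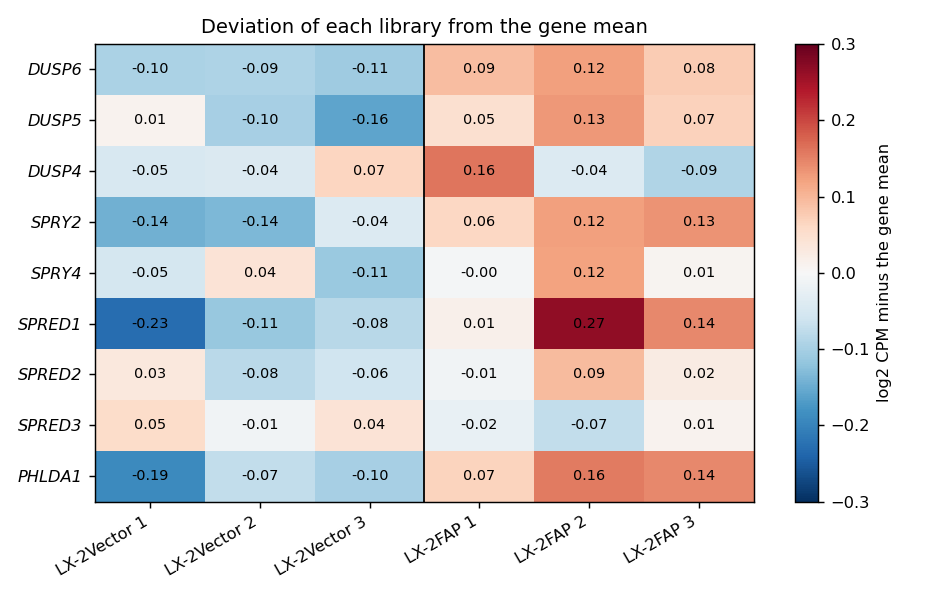
Log2 CPM of each of the 9 more abundant genes minus its own mean (colour and printed value) in the 3 LX-2Vector libraries, left of the line, and the 3 LX-2FAP libraries, right of it. DUSP6, SPRY2, SPRED1 and PHLDA1 are negative in all LX-2Vector and positive in all LX-2FAP libraries. DUSP4, DUSP5, SPRY4, SPRED2 and SPRED3 have mixed signs within a group.

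The other genes of the pathway, 45 on 5 lists with 43 tested, gave 4 called higher and 1 called lower. Their median log2 fold change was 0.04. Over all tested genes, 5.29% were called, 2.57% higher and 2.73% lower, with a median of -0.01. Of 7 other MAP kinase phosphatases, 5 were tested and edgeR called 0, with 0 at an unadjusted p under 0.05. DUSP1, a stress-induced nuclear phosphatase, had a log2 fold change of -0.09 (SE 0.08, adjusted p = 0.553) and DUSP10, which prefers JNK and p38, had 0.05 (SE 0.04, adjusted p = 0.555). The paralogues PHLDA2 (0.03, adjusted p = 0.897) and PHLDA3 (-0.10, adjusted p = 0.459) did not pass, while PHLDA1 did. The difference between PHLDA1 and its paralogues was not tested.

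Of 11 other brakes, RASA1, which switches RAS off, was higher at 176.8 ± 5.39 against 159.1 ± 3.70 CPM (0.15 on the log2 scale, SE 0.04, edgeR adjusted p = 0.0444). LRIG1, which lowers receptor levels, was lower at 75.9 ± 3.69 against 93.1 ± 11.02 CPM (-0.29 on the log2 scale, SE 0.07, adjusted p = 0.0252). Of 19 cascade genes from adaptors to ERK, 2 rose: SHOC2, a scaffold that helps activate RAF (0.24, SE 0.05, adjusted p = 0.012), and PTPN11, a phosphatase that promotes RAS activation (0.18, SE 0.04, adjusted p = 0.0233). Of 5 other genes induced by ERK, CCND1, which encodes cyclin D1, rose from 737.8 ± 3.13 to 958.8 ± 44.2 CPM (0.38, SE 0.04, adjusted p = 0.000401). ETV5 (0.09, adjusted p = 0.275), ETV4 (0.03, adjusted p = 0.847), EPHA4 (0.05, adjusted p = 0.599) and EPHA2 (-0.01, adjusted p = 0.974) did not pass. The number of pathway genes called was 1 when LX-2FAP replicate 2 or replicate 3 was left out, 2 when LX-2Vector replicate 3 was and 3 when LX-2Vector replicate 1 was. Among all tested genes, calls fell from 967 to 126, 20, 392 and 402 in those fits, in the same order.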

How the data were processed

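RNA of 6 libraries was sequenced, 3 LX-2Vector and 3 LX-2FAP, grouped by the sample titles. The labels name ribosomal RNA depletion and the methods also a poly(A) step. The authors aligned reads with HISAT2 2.0.5 and deposited whole-number gene counts from featureCounts 1.5.0-p3, not normalized, and FPKM values that the authors computed from counts and gene length. Per the labels' processing notes the build was hg18; the table holds no coordinates, and the annotation release and strand setting were not given in the sources used here. Of 60605 Ensembl identifiers, 58337 were in GENCODE release 29 (GRCh38), the source of coordinates.

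Counts were tested with edgeR 4.0.16 (quasi-likelihood, TMM, minimum count 10, minimum total 15, R 4.3.3), with no covariate, 2-sided, and adjusted by Benjamini-Hochberg over 18275 genes. Genes with an adjusted p under 0.05 count as called. SEs and 95% intervals came from the test statistic. Named genes are the 10 members, FAP, pathway genes called or needed for a result, and the 5 genes with the most similar pattern. The members and lists were chosen with earlier results of these data known. Promoters came from RefSeq. Libraries of one group differed beyond sampling noise (chi-square over its degrees of freedom, 2.05 to 4.88). Tested on simulated data for this comparison (17945 genes), the fit recovered 41.2% of genes changed 1.2-fold, 72.3% changed 1.5-fold and 82.1% changed 2-fold. False calls made up 7.1%. Alternatives were DESeq2 1.42.0, its size factors, library size alone, 2 other count filters, the replicate number as a block, limma 3.58.1 on log2 FPKM with a pseudocount of 1 or 0.1, removal of a GC trend (loess, span 0.5; GC known for 98.1% of tested genes) and each library left out in turn.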

Additional observations from a re-analysis of the deposited data

How the results depend on the processing

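FAP was called in every alternative, with log2 fold changes of 6.27 to 8.45. The 4 called genes (PHLDA1, SPRED1, SPRY2 and DUSP6) stayed above 0 in all 15 alternatives. By limma-trend on log2(FPKM + 1) and on log2(FPKM + 0.1), 0 of the 10 were called, with 6 at an unadjusted p under 0.05 in each, adjusted p from 0.112 to 0.133 for the 4, and 2 genes called among all. The pathway lists had 0 called there, with 8 at an unadjusted p under 0.05, against 3662 and 3638 of the 18275 tested genes. Leaving out 1 library gave 0 to 4 of the 10, 20 to 1935 genes in all and 1 to 6 pathway genes, against 4, 967 and 5. The lowest total came without LX-2FAP replicate 3 and the highest without LX-2FAP replicate 1. With no filter on low counts, 1606 genes were called. Calls were 469 higher and 498 lower, 246 and 806 with library size alone, and 599 and 204 with the GC trend removed; the cause was not tested. The DUSP4 log2 fold change turned to -0.0031 with library size alone, -0.0084 and -0.0102 by limma on log2(FPKM + 1) and log2(FPKM + 0.1), and ran from -0.058 to 0.075 without 1 library. That of SPRED3 turned to 0.062 with the GC trend removed. In CPM in place of FPKM, 5 of the 10 genes kept their rank in LX-2Vector. In FPKM 8 to 10 did without 1 library, where SPRED1 and SPRY2 changed places without LX-2Vector replicate 2. SPRY1 was not tested when at least 10 counts were required in every sample. Same-numbered libraries of the groups did not deviate together (r = -0.039, 0.044 and -0.010). These values cannot exclude that same-numbered libraries were cultured or prepared together. With the replicate block 4 of the 10, 975 genes and 4 pathway genes were called. Depth limits SPRY1 most, at 7 to 19 counts per library.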

Other observations

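The deposited table pairs genes with Gene Ontology terms, and 4 terms near these genes were looked up after the data were seen and described by counts, with no set test. The term for negative regulation of the ERK cascade held 65 tested genes, 8 of them among the 10. Without those 8, edgeR called 0 of 57 higher and 1 lower, ARRB1, an adaptor that quenches receptor signalling, with 11 at an unadjusted p under 0.05 and a median log2 fold change of -0.03. Inactivation of MAPK activity held 15 tested genes beside members, of which 2 were higher: PPP2CA, a catalytic subunit of protein phosphatase 2A, and RGS4, which speeds the turn-off of G proteins. Negative regulation of FGF receptor signalling held 14 tested genes beside members, with 0 higher, 3 at an unadjusted p under 0.05, and 1 lower in edgeR, GPC1, a cell-surface heparan sulfate proteoglycan. MAP kinase phosphatase activity held 7 tested genes beside members, with 0 called and 0 at an unadjusted p under 0.05 in edgeR. Over all 18275 tested genes 2.57% were called higher and 2.73% lower, and 4054 had an unadjusted p under 0.05 in edgeR.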
